A study of Mus musculus with 8 samples.

Results

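The enzymes of phase I and phase II drug metabolism were followed in the colonic mucosa of mice with chemically induced colitis. The members were all rows of the gene count table whose name starts with Cyp1, Cyp2, Cyp3 or Cyp4 and a letter (cytochrome P450 families), or with Ugt1 or Ugt2 (UDP-glucuronosyltransferases), Gst (glutathione S-transferases) or Sult (sulfotransferases), with at least 10 counts summed over the libraries. Of 113 rows with such a name, 84 reached that minimum, out of 17353 genes in the table: 43 Cyp, 23 Gst, 8 Sult and 10 Ugt genes. RNA was sequenced from 8 male wild-type C57BL/6J mice, 2 in each of 4 groups, killed on day 7. The control group received saline by enema. The DSS model group received saline enemas and drank 3% dextran sulfate sodium (DSS), which damages the lining of the colon and serves as a chemical model of ulcerative colitis. The Kuiyangling group received this preparation at 10 g/kg, and the mesalazine group received 50 mg/kg of mesalazine (5-aminosalicylic acid), a standard treatment of the human disease. Both treated groups were taken as DSS-treated mice, as the series describes, and every enema had a volume of 0.2 ml. The labels give no age, no distance along the colon and no composition of Kuiyangling.

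Phase I enzymes, above all the cytochromes P450, insert oxygen into drugs, steroids, fatty acids and other small hydrophobic molecules. Phase II enzymes then attach a polar group: glucuronic acid by the Ugt enzymes, sulfate by the Sult enzymes, and glutathione by the Gst enzymes, which also detoxify products of lipid oxidation. Liver is the best known site, but the intestinal epithelium carries its own set and meets orally taken compounds first, and several of the genes are known targets of the receptors PXR, CAR and AhR and of the factor NRF2.

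The libraries held 15560946 to 17843715 counts, and 3 counts corresponded to 0.149 to 0.212 CPM (the normalized count used throughout, scaled by the TMM method). Control 2 stood apart among the members, with a mean Spearman correlation to the other libraries of 0.901, against 0.951 to 0.963 for the other 7. Between the 2 controls, 22 of 67 tested members (32.8%) lay more than 2-fold apart, against 8.7% of all tested genes. The corresponding shares were 2.99% of members and 5.08% of all genes in the DSS model, 7.46% and 2.62% under Kuiyangling, and 20.9% and 18.7% under mesalazine. The rank correlation of a library's deviation from the others with gene length ran from -0.534 in mesalazine 1 to 0.444 in control 1, and the tested members were shorter (median 1941 bases) than all tested genes (median 3475 bases), the Gst genes most of all (1202 bases).

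**Figure D1:**
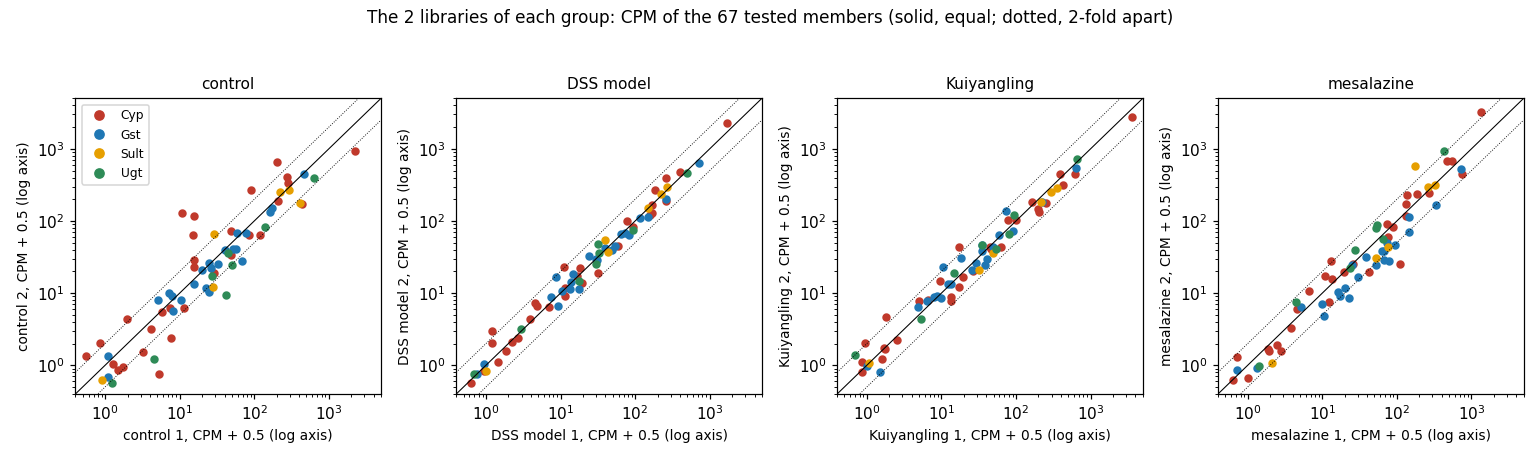
CPM + 0.5 of the 67 tested members in the 2 libraries of each group, on log axes, coloured by gene family. The solid line marks equal values and the dotted lines a 2-fold difference. The controls show the widest scatter, with 22 members outside the dotted lines, against 2 in the DSS model, 5 under Kuiyangling and 14 under mesalazine.

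Markers of position along the gut differed between the libraries, while the position itself is not given. The summed level of 4 posterior Hox genes (Hoxb13, Hoxd13, Hoxa13 and Hoxd12), which mark the distal colon and rectum, was 36.2 and 225 CPM in the controls, 29.4 and 10.8 in the DSS model, 13.2 and 38.1 under Kuiyangling, and 0.920 and 5.49 under mesalazine. Hoxb13 was called lower in mesalazine than in control by edgeR's quasi-likelihood test (log2 change -7.76 ± 1.35 SE, adjusted p = 0.0414). That was the only call by this test among the 2 of the 4 Hox genes that passed the filter on low counts. In the same comparison, DESeq2 called Hoxa13 and Hoxb13 (7.19% of all genes were called). EdgeR without the filter called Hoxa13, Hoxb13 and Hoxd13 (6.28% of all genes). Of 8 small intestinal enterocyte markers, Lct was near 0 (0.0519 to 0.332 CPM), whereas Sis, the sucrase-isomaltase of absorptive cells, had 5.55 and 0.432 CPM in the controls, 3.08 and 6.10 in the DSS model, 19.2 and 20.0 under Kuiyangling and 21.1 and 46.1 under mesalazine. The sum of the 8 did not follow Sis: 1187 and 1126 CPM in the controls, 748 and 1085 in the DSS model, 1127 and 1071 under Kuiyangling and 1172 and 1674 under mesalazine. In mesalazine against control, DESeq2 called Alpi, Apoa4, Fabp6 and Sis, and edgeR without the filter on low counts called the last 3. EdgeR with the filter called none of the list. The 8 colonocyte markers together ran from 13510 to 19830 CPM, so the labelled colonic epithelium was present in every library. Single markers of this list did shift. Their median log2 change in mesalazine against control was -0.66, with 2 higher and 2 lower without overlap. DESeq2 called Aqp8 there and in DSS model against control, and edgeR called none of the list after the filter on low counts. Over the 8 libraries, the summed goblet cell markers ran from 8618 to 25240 CPM, those of small intestinal enterocytes from 748 to 1674, of neutrophils from 10.6 to 866, of B and plasma cells from 35.0 to 119.7, of smooth muscle from 10.1 to 74.1, of adipocytes from 16.2 to 30.1, of endothelium from 4.53 to 17.3 and of squamous epithelium from 0.350 to 1.61. Some of these lists moved with the groups. The neutrophil genes S100a8, S100a9 and Retnlg were called higher than control in the DSS model and under mesalazine, and S100a8 under Kuiyangling. S100a8 had 0 and 0.0617 CPM in the controls, 9.62 and 18.4 in the DSS model, 2.79 and 2.23 under Kuiyangling and 9.27 and 3.56 under mesalazine. The neutrophil list was highest in mesalazine 1 (866 CPM), where Ly6g alone had 843 CPM. Clca1, a goblet cell product, was called lower under mesalazine than in control (log2 change -3.08 ± 0.51 SE, adjusted p = 0.0365). All 6 smooth muscle markers were higher in both Kuiyangling libraries than in both DSS libraries, with none called. Some of these differences in markers of position and of other cell types moved with the groups, and others with single libraries. Their part in the results on the enzymes was not tested. Fewer cells of a type and less RNA per cell cannot be told apart in such bulk samples.

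The clearest pattern was in the mesalazine group. The 3 members called by edgeR were higher under mesalazine than in control: Cyp3a25, Cyp2d26 and Cyp4v3. A further set, including Cyp4b1, Cyp3a13, Cyp2w1 and Sult1a1, was higher in both mesalazine libraries than in both DSS libraries. EdgeR called none of these 4 in that comparison after the filter on low counts, DESeq2 called Cyp4b1, Cyp3a13 and Sult1a1, and edgeR without the filter called Cyp4b1, Cyp3a13 and Cyp2w1. Mesalazine and DSS model libraries did not overlap for 23 of 67 tested members with mesalazine higher (34.3%, against 14% of all tested genes) and for 7 with mesalazine lower (10.4%, against 13.8%). The median log2 change of the tested members was 0.29 in this comparison and 0.04 over all genes. With a trend against gene length removed, the members' median was 0.23. Of the 84 members, 67 passed the filter on low counts and were tested. The other 17 are described by their counts.

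Against all genes, the counts of called members were as follows, at an adjusted p under 0.05. In mesalazine against control, 3 of 67 members were called (4.48%, against 0.673% of the 13381 tested genes), and 22 (32.8%, against 20%) had an unadjusted p under 0.05. DESeq2 called 9 of the 69 members to which it gave an adjusted p (13%, against 7.19% of all genes): Cyp2c66, Cyp2d26, Cyp2f2, Cyp2j6, Cyp3a25, Cyp4b1, Cyp4v3, Gsta1 and Gstk1. In DSS model against control, edgeR called no member (0.247% of all genes), and 15 (22.4%, against 14.8%) had an unadjusted p under 0.05. DESeq2 called 5 of 73 there (6.85%, against 3.11%): Cyp2d12, Cyp3a25, Cyp4f40, Gstk1 and Sult1a1. In Kuiyangling against control, edgeR called no member (0.239% of all genes), and 13 (19.4%, against 10.3%) had an unadjusted p under 0.05. DESeq2 called 2 of 69 (2.9%, close to the 2.56% of all genes), Cyp2d26 and Cyp3a25. In Kuiyangling against DSS model, edgeR called no member and no gene (0%), and 4 members (5.97%, against 3.56%) had an unadjusted p under 0.05. DESeq2 called no member there either (0.0749% of all genes). In mesalazine against DSS model, edgeR called no member and no gene (0%), and 9 members (13.4%, against 5.49%) had an unadjusted p under 0.05. DESeq2 called 4 of 58 (6.9%, against 0.76%): Cyp3a13, Cyp4b1, Cyp4v3 and Sult1a1. In Kuiyangling against mesalazine, edgeR called no member and no gene (0%), 4 members (5.97%, against 1.9%) had an unadjusted p under 0.05, and DESeq2 called none. A test of any difference among the 4 groups called no member (0.202% of all genes), and 18 (26.9%, against 12.4%) had an unadjusted p under 0.05. DESeq2 called 8 of 74 in that test (10.8%, against 5.21%). Without the filter on low counts, edgeR called 12 of 84 members in mesalazine against control (14.3%, against 6.28% of all genes), 2 in DSS model against control (2.38%, against 2.81%), 3 in Kuiyangling against control (3.57%, against 2.6%) and 3 in mesalazine against DSS model (3.57%, against 0.599%). It called 0 in Kuiyangling against DSS model (0.0634% of all genes) and in Kuiyangling against mesalazine (0.0173%), and 10 in the test of any difference (11.9%, against 4.99%). The comparisons share groups, so their counts are not independent of each other.

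The number of members whose libraries did not overlap was close to that of all genes where DSS was compared with control. There, 18 members were higher in DSS (26.9%, against 27.1% of all genes) and 14 lower (20.9%, against 26.3%). Kuiyangling lay above DSS for 18 members (26.9%, against 21.9%) and below for 16 (23.9%, against 21.1%). Kuiyangling lay above control for 21 (31.3%, against 25.9%) and below for 10 (14.9%, against 23.2%). Mesalazine lay above control for 25 (37.3%, against 23.6%) and below for 10 (14.9%, against 22.1%). Kuiyangling lay above mesalazine for 3 (4.48%, against 10.6%) and below for 14 (20.9%, against 11.6%). The members' median log2 change was 0.41 in mesalazine against control and -0.32 in Kuiyangling against mesalazine, and these medians were 0.05 and -0.13 once the length trend was removed.

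**Figure D2:**
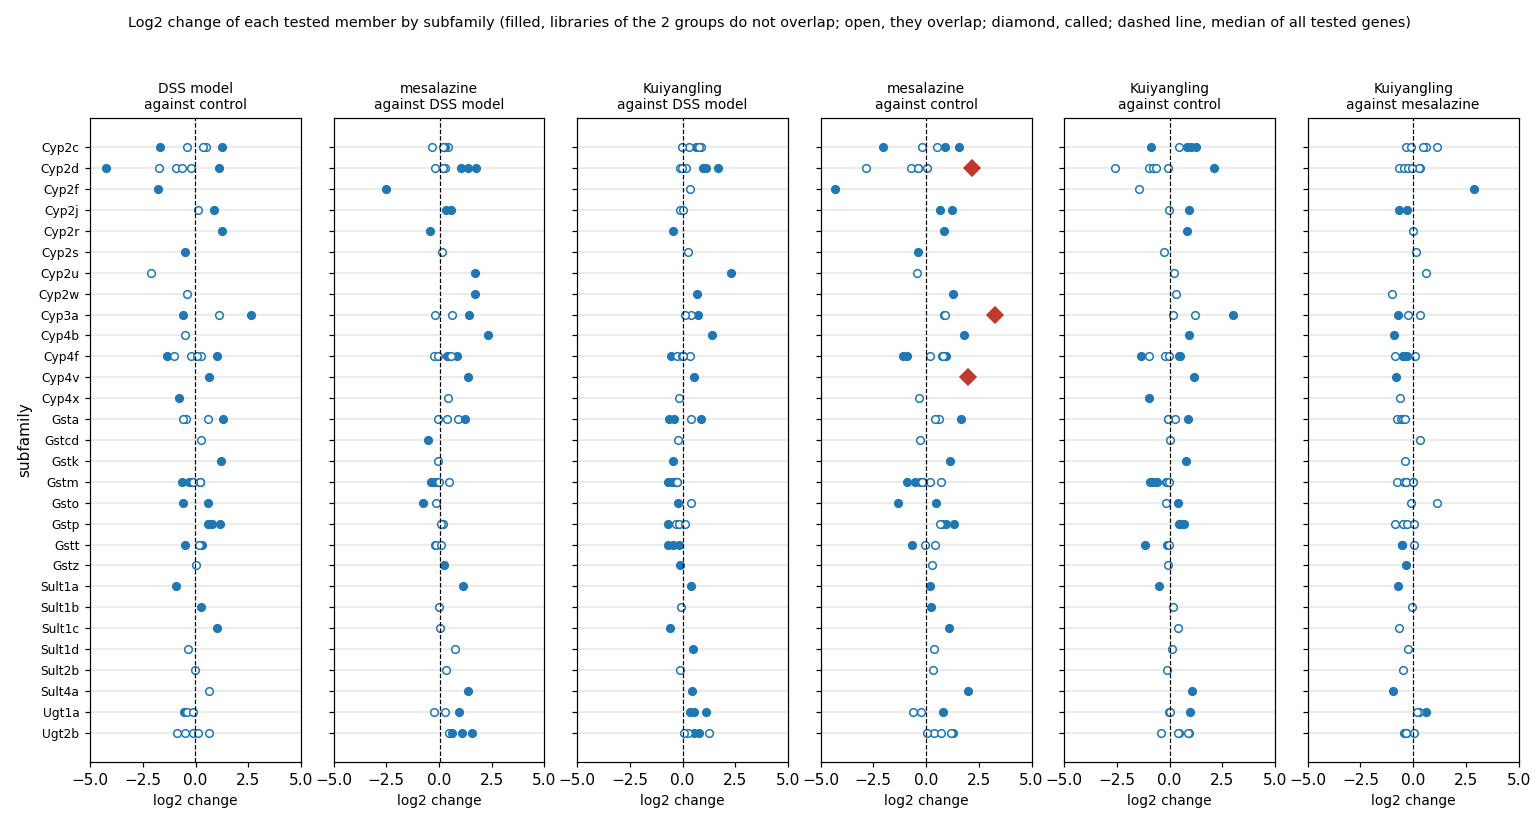
Log2 change of each of the 67 tested members (horizontal axis) by subfamily (vertical axis), in each of the 6 comparisons. Filled points are members whose libraries do not overlap between the groups, open points overlap, diamonds are the 3 called members and the dashed line is the median of all tested genes. The diamonds, for Cyp2d26, Cyp3a25 and Cyp4v3, stand at log2 changes of 2.16, 3.25 and 1.99 in mesalazine against control.

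The promoters of the 3 called genes are shown because these genes were higher together under mesalazine than in control. Each window runs from 250 bases before to 50 bases after the gene's start in RefSeq on the build GRCm38.p6, on the gene's own minus strand, at chr5:146009569-146009868 for Cyp3a25 (the first of 2 windows listed for it), chr15:82794196-82794495 for Cyp2d26 and chr8:45333114-45333413 for Cyp4v3. Capitals mark matches on either strand to AGGTCA, a half-site bound by many nuclear receptors, or to AGTTCA, a half-site found in elements of PXR and CAR.
Cyp3a25: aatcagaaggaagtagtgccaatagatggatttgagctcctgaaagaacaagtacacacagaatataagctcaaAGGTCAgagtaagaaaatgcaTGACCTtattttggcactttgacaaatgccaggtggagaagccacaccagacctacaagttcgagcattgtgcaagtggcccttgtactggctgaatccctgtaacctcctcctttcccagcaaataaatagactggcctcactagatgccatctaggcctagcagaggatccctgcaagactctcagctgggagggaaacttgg
Cyp2d26: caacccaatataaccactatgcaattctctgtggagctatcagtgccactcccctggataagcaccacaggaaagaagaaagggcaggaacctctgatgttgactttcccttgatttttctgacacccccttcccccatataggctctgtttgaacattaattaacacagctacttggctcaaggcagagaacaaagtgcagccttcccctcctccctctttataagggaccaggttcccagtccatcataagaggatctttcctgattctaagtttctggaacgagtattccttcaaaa
Cyp4v3: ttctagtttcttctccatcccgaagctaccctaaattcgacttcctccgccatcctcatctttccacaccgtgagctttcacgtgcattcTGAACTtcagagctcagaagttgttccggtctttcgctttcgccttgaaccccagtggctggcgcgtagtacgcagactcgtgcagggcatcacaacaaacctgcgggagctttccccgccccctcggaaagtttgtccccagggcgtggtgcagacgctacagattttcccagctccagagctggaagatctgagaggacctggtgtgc
Cyp3a25 held 2 matches to AGGTCA, 1 from position -176 on the gene's strand and 1 from position -155 on the opposite strand, counted from the start of the gene. Cyp4v3 held 1 match to AGTTCA on the opposite strand from position -160, and Cyp2d26 held neither half-site in this window. Among all 27025 RefSeq promoters of this length, 16.04% held AGGTCA and 14.02% AGTTCA, and among the 73 member promoters found in RefSeq the shares were 16.44% and 13.7%. The core of the AhR response element, TNGCGTG, stood in 5.12% of all promoters and 5.48% of member promoters, and the core of the NRF2 response element, TGACNNNGC, in 12.47% and 9.59%. All motifs were searched on both strands, and a match describes letters only.

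Cyp3a25, a P450 of the CYP3A subfamily, which oxidizes steroids and many drugs, had 1.24 and 0.432 CPM in the controls, 4.34 and 6.23 in the DSS model, 6.13 and 7.63 under Kuiyangling and 6.23 and 10.0 under mesalazine. Every DSS-exposed library lay above both controls, whichever enema the mice had received. The mean was 0.835 ± 0.571 CPM in control and 8.13 ± 2.69 CPM under mesalazine (SD, n = 2 each). The log2 change was 3.25 ± 0.53 (SE, adjusted p = 0.0334) in mesalazine against control, 3.00 ± 0.53 (SE, adjusted p = 0.0568) in Kuiyangling against control and 2.62 ± 0.53 (SE, adjusted p = 0.0965) in DSS model against control, all by edgeR, and the first passed the threshold. DESeq2, and edgeR without the filter on low counts, called Cyp3a25 in all 3 comparisons with control. The gene shares 12.3% of its 75-base windows with other genes, nearly all with Cyp3a59, so reads could be split between these copies. Cyp2d26, a member of the CYP2D subfamily, had 48.2 and 33.2 CPM in the controls, 93.3 and 83.1 in the DSS model, 198 and 147 under Kuiyangling and 134 and 230.2 under mesalazine. The groups stood in 3 separate steps: both controls lowest, both DSS model libraries next, and all 4 libraries of the treated groups highest. The mean was 40.7 ± 10.6 CPM in control and 182 ± 67.7 CPM under mesalazine (SD, n = 2 each). Its log2 change was 2.16 ± 0.35 (SE, adjusted p = 0.0318) in mesalazine against control, 2.08 ± 0.35 (SE, adjusted p = 0.0503) in Kuiyangling against control and 1.11 ± 0.34 (SE, adjusted p = 0.201) in DSS model against control. Cyp4v3, the mouse counterpart of a fatty acid omega-hydroxylase, had 6.99 and 5.73 CPM in the controls, 10.9 and 8.69 in the DSS model, 17.0 and 11.5 under Kuiyangling and 25.5 and 25.2 under mesalazine. No pair of groups overlapped: control was lowest, then the DSS model, Kuiyangling and mesalazine. The mean was 6.36 ± 0.885 CPM in control and 25.4 ± 0.185 CPM under mesalazine (SD, n = 2 each). Its log2 change was 1.99 ± 0.31 (SE, adjusted p = 0.0312) in mesalazine against control, 1.37 ± 0.31 (SE, adjusted p = 0.479) in mesalazine against DSS model and 0.54 ± 0.31 (SE, adjusted p = 0.996) in Kuiyangling against DSS model.

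All 3 genes lost their call when either control 2 or mesalazine 1 was left out, with log2 changes that stayed between 1.86 and 3.54. In the same fits the number of all genes called fell from 90 to 1 and 3. Cyp2d26 also lost its call without either DSS library (adjusted p = 0.0544 and 0.0537). Without control 2, the log2 changes in mesalazine against control were 2.71 (adjusted p = 0.235) for Cyp3a25, 1.92 (adjusted p = 0.283) for Cyp2d26 and 1.86 (adjusted p = 0.272) for Cyp4v3, and no member was called. Without mesalazine 1 they were 3.54 (adjusted p = 0.0848), 2.49 (adjusted p = 0.0657) and 1.98 (adjusted p = 0.111), and again none was called. With the length trend removed, Cyp4v3 stayed called (adjusted p = 0.0362), whereas Cyp3a25 (0.0587) and Cyp2d26 (0.0641) did not pass. Control 2 is also the library with the highest Hox level, and mesalazine 1 the one with the lowest.

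**Figure D3:**
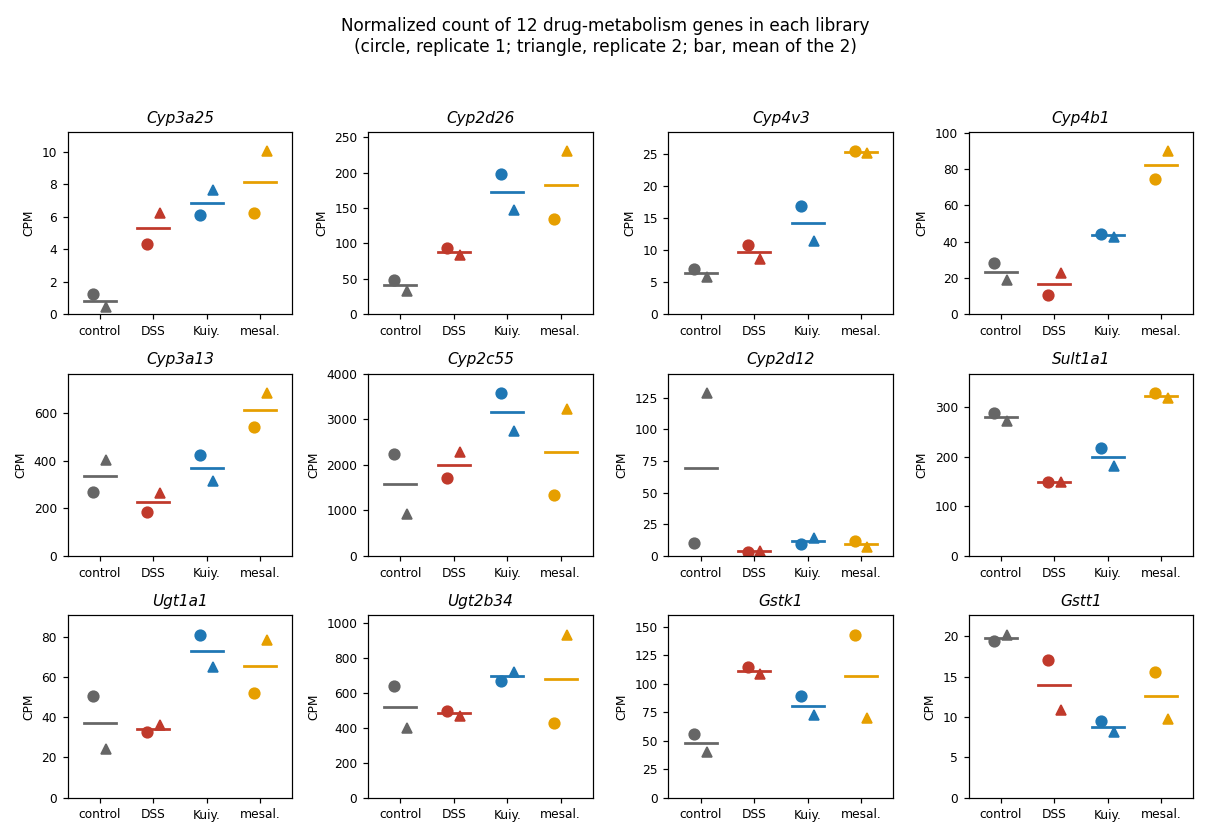
CPM (vertical axes, from 0) of 12 members in each library by group. Circles are replicate 1, triangles replicate 2 and bars the mean of both. Both controls lie below the other 6 libraries for Cyp3a25, Cyp2d26, Cyp4v3 and Gstk1, and control 2 alone is high for Cyp2d12.

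Among the other CYP3A genes, Cyp3a13 is the main one in mouse gut epithelium. By FPKM, the authors' unit scaled to gene length and library total, it made up 92.9% of the subfamily. It had 271 and 402 CPM in the controls, 187 and 266 in the DSS model, 424 and 316 under Kuiyangling and 542 and 686 under mesalazine. Both mesalazine libraries were the highest of the 8 and both DSS libraries were below both controls. The log2 change was 1.44 ± 0.34 (SE, adjusted p = 0.503) in mesalazine against DSS model, 0.71 ± 0.33 (SE, adjusted p = 0.996) in Kuiyangling against DSS model and -0.57 ± 0.33 (SE, adjusted p = 0.415) in DSS model against control. Cyp3a44 had 4.81 and 0.247 CPM in the controls, 4.09 and 6.89 in the DSS model, 4.52 and 7.32 under Kuiyangling and 4.11 and 5.49 under mesalazine, with control 2 far below the other 7 libraries. Cyp3a11, the major hepatic CYP3A of the mouse, was barely detected, with 4 and 0 counts in the controls, 4 and 11 in the DSS model, 4 and 8 under Kuiyangling and 3 and 7 under mesalazine.

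Cyp4b1, which hydroxylates fatty acids and activates some aromatic amines, showed the largest difference between mesalazine and the DSS model among members with a mean of at least 5 CPM whose libraries did not overlap. It had 28.0 and 18.6 CPM in the controls, 10.5 and 22.7 in the DSS model, 44.3 and 42.8 under Kuiyangling and 74.4 and 89.9 under mesalazine. The treated libraries were all above the 4 others, and mesalazine was above Kuiyangling. The log2 change was 2.31 ± 0.38 (SE, adjusted p = 0.203) in mesalazine against DSS model, 1.39 ± 0.37 (SE, adjusted p = 0.996) in Kuiyangling against DSS model, 1.82 ± 0.37 (SE, adjusted p = 0.0666) in mesalazine against control and -0.92 ± 0.36 (SE, adjusted p = 0.999) in Kuiyangling against mesalazine. EdgeR called none of these after the filter on low counts. DESeq2 called the first (adjusted p = 9.79e-06) and the third, and so did edgeR without the filter.

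The CYP4F enzymes hydroxylate leukotrienes and long fatty acids, and 8 of them were members, 6 tested. Cyp4f14 had 286 and 337 CPM in the controls, 262 and 399 in the DSS model, 388 and 453 under Kuiyangling and 737 and 443 under mesalazine, with mesalazine above both DSS libraries (log2 change 0.84 ± 0.34 SE, adjusted p = 0.819). Cyp4f16 had 90.6 and 269 CPM in the controls, 76.3 and 101 in the DSS model, 76.9 and 103 under Kuiyangling and 89.0 and 81.7 under mesalazine. Control 2 alone was high: the log2 change in mesalazine against control was -1.08 with all libraries and -0.09 without control 2. Cyp4f40 had 84.0 and 62.5 CPM in the controls, 167 and 129 in the DSS model, 99.5 and 103 under Kuiyangling and 131 and 116 under mesalazine, higher in both DSS libraries than in both controls (log2 change 1.01 ± 0.27 SE, adjusted p = 0.164). Cyp4f13 lay between 42.7 and 75.6 CPM, and Cyp4f17 and Cyp4f18 stayed below 4 CPM in every library. Cyp4x1, known mainly from brain, was under 1 CPM throughout.

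The CYP2C subfamily oxidizes arachidonic acid and drugs and held the most abundant member. Cyp2c55 had a mean of 1110 FPKM (the authors' unit, scaled to gene length and library total, so that genes of different length can be compared) and made up 81% of the subfamily's FPKM. It had 2234 and 921 CPM in the controls, 1723 and 2284 in the DSS model, 3579 and 2739 under Kuiyangling and 1331 and 3228 under mesalazine. The 2 controls, and the 2 mesalazine libraries, were each more than 2-fold apart. Both Kuiyangling libraries lay above both DSS libraries and both controls, with log2 changes of 0.66 ± 0.51 (SE, adjusted p = 0.996) and 1.0 ± 0.52 (SE, adjusted p = 0.585). Cyp2c65 followed with a mean of 241 FPKM and had 442 and 173 CPM in the controls, 401 and 473 in the DSS model, 623 and 451 under Kuiyangling and 471 and 686 under mesalazine. Control 2 was the lowest library for both genes.

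Cyp2c66 had 7.18 and 1.85 CPM in the controls, 10.8 and 11.2 in the DSS model, 13.0 and 8.36 under Kuiyangling and 10.4 and 16.5 under mesalazine, with all 6 DSS-exposed libraries above both controls. The log2 change was 1.27 ± 0.54 (SE, adjusted p = 0.320) in DSS model against control and 1.23 ± 0.54 (SE, adjusted p = 0.477) in Kuiyangling against control, the latter 0.57 without control 2. Cyp2c65 and Cyp2c66 share 11.4% and 10.8% of their windows with each other. Cyp2c69 went the other way, with 5.30 and 4.99 CPM in the controls, 0.692 and 2.52 in the DSS model, 1.3 and 4.15 under Kuiyangling and 1.34 and 1.17 under mesalazine. Its log2 change was -1.68 ± 0.68 (SE, adjusted p = 0.298) in DSS model against control, and 42.6% of its windows are shared with Cyp2c40, Cyp2c67 and Cyp2c68. Summed over the 8 CYP2C members, the level was 2704 and 1130 CPM in the controls, 2151 and 2788 in the DSS model, 4234 and 3246 under Kuiyangling and 1834 and 3952 under mesalazine.

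The CYP2D subfamily, drug oxidizing P450s present as a gene cluster in the mouse, differed mainly by library, apart from Cyp2d26. Cyp2d34, its most abundant member (mean 147 FPKM), had 202 and 661 CPM in the controls, 261 and 188 in the DSS model, 256 and 178 under Kuiyangling and 271 and 246 under mesalazine. Cyp2d9 had 15.3 and 117 CPM in the controls, 17.5 and 21.9 in the DSS model, 45.6 and 39.9 under Kuiyangling and 109.5 and 25.2 under mesalazine, and Cyp2d10 had 14.7 and 64.3 CPM in the controls, 31.8 and 18.2 in the DSS model, 26.1 and 19.7 under Kuiyangling and 42.2 and 19.2 under mesalazine. Control 2 was the highest library for all 3, and mesalazine 1 was second for each. Cyp2d12 had 10.3 and 129 CPM in the controls, 3.33 and 3.85 in the DSS model, 9.10 and 14.1 under Kuiyangling and 11.8 and 7.12 under mesalazine. Its log2 change in DSS model against control was -4.27 ± 0.93 (SE, adjusted p = 0.106), and -1.51 without control 2. Both DSS libraries were below both controls, and the treated libraries were above the DSS libraries (log2 change 1.69 for Kuiyangling and 1.40 for mesalazine, adjusted p = 0.996 and 0.966). Cyp2d22 differed little, between 13.1 and 22.6 CPM, and had non-overlapping libraries in Kuiyangling against mesalazine (log2 change 0.32 ± 0.31 SE, adjusted p = 0.999).

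**Figure D4:**
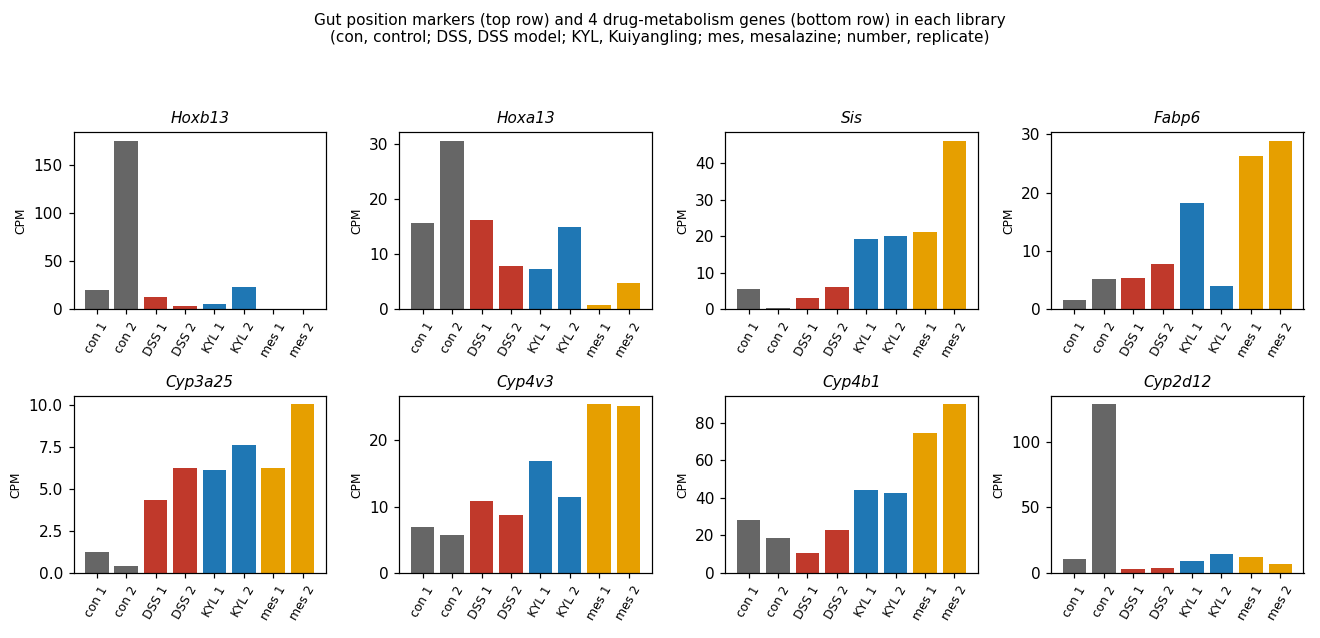
CPM (vertical axes, from 0) in each library of 4 gut position markers, chosen after their values were seen (top row), and of 4 members (bottom row). Hoxb13 and Cyp2d12 both peak in control 2, and Sis, Cyp3a25, Cyp4v3 and Cyp4b1 have their highest values in mesalazine libraries.

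Cyp2s1, an epithelial P450 regulated by AhR, ran from 120.4 to 205 CPM and was lower in both DSS libraries than in both controls (log2 change -0.51 ± 0.30 SE, adjusted p = 0.426). Cyp2j6, an arachidonic acid epoxygenase of the intestine, had 119.5 and 63.3 CPM in the controls, 166 and 168 in the DSS model, 163 and 181 under Kuiyangling and 188 and 234 under mesalazine. All DSS-exposed libraries were above the controls, with log2 changes of 0.87 ± 0.33 (SE, adjusted p = 0.278) in the DSS model, 0.91 ± 0.33 (SE, adjusted p = 0.340) under Kuiyangling and 1.21 ± 0.33 (SE, adjusted p = 0.103) under mesalazine. Cyp2w1, known from the developing gut and colon tumours, had 10.8 and 5.8 CPM in the controls, 6.48 and 5.97 in the DSS model, 12.9 and 7.27 under Kuiyangling and 12.7 and 27.6 under mesalazine, and mesalazine lay above the DSS model (log2 change 1.70 ± 0.47 SE, adjusted p = 0.530). Mesalazine 2 alone gave the top value, and without it the log2 change was 1.03. Cyp2f2, best known from airway club cells, had 1.44 and 3.95 CPM in the controls, 0.944 and 0.597 in the DSS model, 0.433 and 1.51 under Kuiyangling and 0.141 and 0.117 under mesalazine, lowest in both mesalazine libraries (log2 change -4.31 ± 0.91 SE, adjusted p = 0.0757 against control). Cyp2r1, the vitamin D 25-hydroxylase, and Cyp2u1 stayed below 2 CPM.

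The AhR targets Cyp1a1 and Cyp1b1 did not pass the filter on low counts. Cyp1b1 was found mainly in both Kuiyangling libraries, and Cyp1a1 mainly in Kuiyangling 1. Without the filter, edgeR called Cyp1a1 in the test of any difference among the 4 groups, a call that 4.99% of all genes received. Cyp1a1, the classical AhR-induced enzyme, had 2 and 0 counts in the controls, 0 and 0 in the DSS model, 42 and 1 under Kuiyangling and 0 and 0 under mesalazine. Kuiyangling (43 counts) was at least 12.5-fold higher than the DSS model (0 counts, set to a floor of 3 counts over the group), but 42 of the 43 counts came from Kuiyangling 1. Without that library a single count is left. Cyp1b1 had 0 and 0 counts in the controls, 0 and 0 in the DSS model, 5 and 5 under Kuiyangling and 0 and 1 under mesalazine, at least 2.92-fold higher under Kuiyangling than in the DSS model by the same floor. The AhR repressor Ahrr, itself an AhR target, had 11 and 3 counts in the controls, 2 and 6 in the DSS model, 16 and 11 under Kuiyangling and 2 and 6 under mesalazine. The ratio of Kuiyangling to the DSS model was 2.95 (95% counting interval 1.3 to 7.52), and to control 1.98 (1 to 4.09). Ahrr passed the filter, and neither edgeR nor DESeq2 called it in these 2 comparisons. Intervals and floors cover counting error only.

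Cyp2e1, which oxidizes ethanol and small solvents and is abundant in liver, had 26 and 5 counts in the controls, 3 and 0 in the DSS model, 0 and 1 under Kuiyangling and 3 and 3 under mesalazine. The ratio of the DSS model to control was 0.114 (95% counting interval 0.0222 to 0.364), and 26 of the 31 control counts were in control 1. That library also had the highest level of the 8 hepatocyte markers together (36.5 CPM, against 10.7 to 20.0 in the others) and of albumin (Alb, 18.9 CPM, against 0.0619 to 0.863), and the part of this in the Cyp2e1 counts was not tested. Cyp2b10, the classical CAR target, had 1 count in the controls, 0 in the DSS model, 4 under Kuiyangling and 8 under mesalazine. The remaining low members were Cyp2c23, Cyp2c40, Cyp2c67, Cyp2d40, Cyp2j8, Cyp2j13, Cyp4f15, Cyp4f39, Sult1c1, Sult5a1, Ugt1a2 and Ugt2b1, with 0 to 20 counts per group. Sult1c1 had 2 counts in the controls, 11 in the DSS model, 4 under Kuiyangling and 15 under mesalazine.

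**Figure D5:**
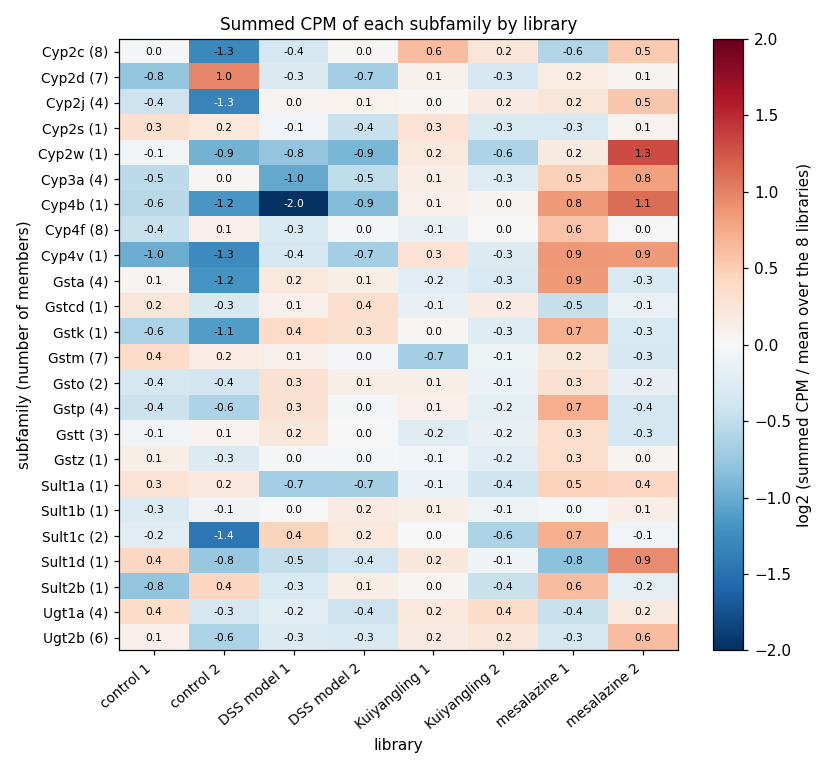
Summed CPM of each subfamily with a mean of at least 5 CPM (rows, number of members in parentheses) in each library (columns), as log2 of its ratio to the mean over the 8 libraries. Cyp4b and Cyp4v are low in the controls and the DSS model and high under mesalazine, Cyp2d is high in control 2 and Sult1a is low in both DSS model libraries.

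The glutathione S-transferases were higher in the DSS model than in control for 15 of 23 genes by their estimates (median 0.21), but for 10 of 23 (median -0.07) once the length trend was removed. EdgeR called none in any of the 6 comparisons after the filter on low counts, with 0 to 5 of 23 at an unadjusted p under 0.05. The 5 were in mesalazine against control, where 20% of all genes had such a p. DESeq2 called Gstk1 in DSS model against control (3.11% of all genes were called there). It called Gsta1 and Gstk1 in mesalazine against control (7.19% of all genes). Gstk1, the mitochondrial and peroxisomal kappa enzyme, had 56.1 and 39.8 CPM in the controls, 115 and 109 in the DSS model, 89.4 and 72.5 under Kuiyangling and 143 and 70.3 under mesalazine. Both DSS libraries were above both controls, and mesalazine 1 was highest. The log2 change was 1.22 ± 0.36 (SE, adjusted p = 0.186) in DSS model against control and 1.15 ± 0.36 (SE, adjusted p = 0.131) in mesalazine against control. Without the filter on low counts, edgeR called Gstk1 in the second comparison, where 6.28% of all genes were called. Gsto1, the omega class enzyme and the most abundant Gst gene (mean 494 FPKM), had 458 and 448 CPM in the controls, 726 and 641 in the DSS model, 633 and 541 under Kuiyangling and 728 and 524 under mesalazine. All DSS-exposed libraries were above both controls (log2 change 0.59 ± 0.29 SE, adjusted p = 0.366 in the DSS model).

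All 4 pi class genes, Gstp1, Gstp2, Gstp3 and Gstp-ps, had both DSS libraries above both controls, an order that 27.1% of all genes showed, with a median log2 change of 0.71 (0.27 with the length trend removed, when 2 of the 4 estimates stayed above 0). Gstp1, the main pi enzyme, had 162 and 132 CPM in the controls, 256 and 198 in the DSS model, 224 and 184 under Kuiyangling and 338 and 165 under mesalazine (log2 change 0.63 ± 0.36 SE, adjusted p = 0.412 in DSS model against control). Gstp3, which shares no window with other genes, had 4.61 and 7.65 CPM in the controls, 13.4 and 13.6 in the DSS model, 8.11 and 8.67 under Kuiyangling and 22.4 and 8.05 under mesalazine (log2 change 1.14 ± 0.46 SE, adjusted p = 0.30), and Kuiyangling lay below the DSS model (log2 change -0.68). Gstp1, Gstp2 and Gstp-ps share 29.2%, 50.1% and 60.9% of their windows, chiefly with each other, so their separate values are uncertain and the 4 genes are not 4 separate readings. Among the alpha class genes, which conjugate lipid peroxidation products, Gsta1 had 22.3 and 11.2 CPM in the controls, 39.2 and 42.3 in the DSS model, 37.5 and 24.3 under Kuiyangling and 78.9 and 27.7 under mesalazine. Its log2 change was 1.28 ± 0.49 (SE, adjusted p = 0.280) in DSS model against control, and 84.7% of its windows are shared, mostly with Gm3776 and Gsta2. Gsta4 had 69.1 and 27.4 CPM in the controls, 82.2 and 62.5 in the DSS model, 49.0 and 43.1 under Kuiyangling and 92.6 and 46.0 under mesalazine and Gsta3 had 23.9 and 9.93 CPM in the controls, 8.24 and 16.2 in the DSS model, 9.96 and 22.6 under Kuiyangling and 29.4 and 16.1 under mesalazine, both overlapping between the DSS model and control.

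All 7 genes of the mu class, which conjugates a broad range of electrophiles, had estimates below 0 in Kuiyangling against control, with a median log2 change of -0.62 (-0.78 with the length trend removed), and 4 of the 7 lay below control without overlap, against 23.2% of all genes. Gstm1, the most abundant, had 172 and 149 CPM in the controls, 148 and 112 in the DSS model, 72.2 and 137 under Kuiyangling and 147 and 113 under mesalazine. Gstm2 had 76.5 and 67.5 CPM in the controls, 63.3 and 66.2 in the DSS model, 34.1 and 46.7 under Kuiyangling and 62.6 and 38.4 under mesalazine, and Gstm3 had 50.9 and 40.5 CPM in the controls, 30.3 and 27.9 in the DSS model, 17.9 and 30.5 under Kuiyangling and 24.4 and 24.2 under mesalazine. All 6 DSS-exposed libraries were below both controls for each of the 3. The log2 change in Kuiyangling against control was -0.83 ± 0.30 (SE, adjusted p = 0.358) for Gstm2 and -0.92 ± 0.30 (SE, adjusted p = 0.290) for Gstm3. Gstm6 had lower values under both treatments than in the DSS model (log2 change -0.35 under mesalazine, -0.35 under Kuiyangling).

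Gstt1, a theta class enzyme that acts on small halogenated compounds, had 19.4 and 20.2 CPM in the controls, 17.1 and 10.9 in the DSS model, 9.47 and 8.10 under Kuiyangling and 15.6 and 9.75 under mesalazine. Both Kuiyangling libraries were the lowest of the 8 and both controls the highest, with a log2 change of -1.17 ± 0.34 (SE, adjusted p = 0.224) in Kuiyangling against control and -0.67 ± 0.34 (SE, adjusted p = 0.996) against the DSS model. Gstt3 (49.1 to 73.5 CPM) and Gstz1 (24.9 to 38.1 CPM) varied less. Gstcd lay lower under mesalazine than in the DSS model (log2 change -0.52 ± 0.36 SE, adjusted p = 0.983).

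Of the sulfotransferases, Sult1a1, the phenol sulfotransferase, separated the groups most cleanly. It had 288 and 272 CPM in the controls, 149 and 149.9 in the DSS model, 217 and 180.5 under Kuiyangling and 328 and 318 under mesalazine, so no pair of groups overlapped and the replicates differed little. The DSS model was lowest, then Kuiyangling, control and mesalazine. The log2 change was -0.91 ± 0.25 (SE, adjusted p = 0.173) in DSS model against control, 1.11 ± 0.26 (SE, adjusted p = 0.503) in mesalazine against DSS model, 0.41 ± 0.25 (SE, adjusted p = 0.996) in Kuiyangling against DSS model and -0.70 ± 0.25 (SE, adjusted p = 0.999) in Kuiyangling against mesalazine. DESeq2 called the first and the second, edgeR neither. Sult1b1, the thyroid hormone and phenol sulfotransferase, was even at 222 to 299.8 CPM. Sult1c2 had 27.4 and 11.8 CPM in the controls, 43.1 and 36.8 in the DSS model, 31.7 and 20.6 under Kuiyangling and 52.0 and 30.4 under mesalazine, above both controls in both DSS libraries (log2 change 1.02 ± 0.42 SE, adjusted p = 0.308). Sult1d1, a catecholamine sulfotransferase of the mouse, had 406 and 179 CPM in the controls, 219 and 233 in the DSS model, 354 and 286 under Kuiyangling and 172 and 583 under mesalazine, and Kuiyangling lay above the DSS model (log2 change 0.50 ± 0.53 SE, adjusted p = 0.996). Sult2b1, which sulfates cholesterol, overlapped between all pairs of groups, at 28.3 to 74.95 CPM. Sult4a1 stayed below 2 CPM.

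All 8 tested glucuronosyltransferases had higher estimates under Kuiyangling than in the DSS model, with a median log2 change of 0.54, and this count was the same under the other scalings (medians 0.53 to 0.67). Ugt2b35, with the estimate nearest 0 (0.08), turned to -0.05 without DSS model 2 and to -0.14 without Kuiyangling 2. In 5 of the 8, 3 Ugt1a and 2 Ugt2b genes, the libraries did not overlap, against 21.9% of all genes with Kuiyangling higher. Neither edgeR nor DESeq2 called any, and 1 had an unadjusted p under 0.05. The pattern was not particular to Kuiyangling: in mesalazine against DSS model, 7 of the 8 estimates were higher, with a median log2 change of 0.57. There, 1 Ugt1a and 4 Ugt2b genes lay higher without overlap, against 14% of all genes. Ugt1a1, the bilirubin enzyme, had 50.4 and 24.2 CPM in the controls, 32.7 and 35.9 in the DSS model, 80.8 and 65.0 under Kuiyangling and 52.1 and 78.4 under mesalazine. All 4 treated libraries were above the DSS model and the controls, with log2 changes of 1.09 ± 0.37 (SE, adjusted p = 0.996) for Kuiyangling and 0.93 ± 0.37 (SE, adjusted p = 0.809) for mesalazine against the DSS model. Ugt1a7c had 138 and 82.4 CPM in the controls, 93.7 and 73.9 in the DSS model, 93.8 and 122 under Kuiyangling and 54.1 and 86.7 under mesalazine, and Ugt1a6a, which prefers planar phenols, had 44.4 and 35.6 CPM in the controls, 29.4 and 25.2 in the DSS model, 34.0 and 45.9 under Kuiyangling and 26.9 and 39.7 under mesalazine. Both had all Kuiyangling values above those of the DSS model (log2 change 0.37 and 0.55). The Ugt1a genes share their last exons, and 51.2% to 63.3% of the windows of the 4 members are shared, so reads in that common part cannot be assigned to 1 gene. The 3 tested Ugt1a genes are thus not 3 separate readings. Ugt2b5 and Ugt2b38 share 28.4% and 27.9% of their windows with each other.

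Ugt2b34, the most abundant Ugt member (mean 198 FPKM), had 639 and 398 CPM in the controls, 496 and 469.7 in the DSS model, 668 and 720.3 under Kuiyangling and 427 and 930.4 under mesalazine. Kuiyangling was above the DSS model and the controls (log2 change 0.52 ± 0.39 SE, adjusted p = 0.996 against the DSS model), whereas the 2 mesalazine libraries were the second lowest and the highest of the 8. Ugt2b5 had 40.7 and 9.06 CPM in the controls, 31.2 and 47.1 in the DSS model, 54.2 and 40.2 under Kuiyangling and 63.9 and 55.9 under mesalazine. Its level in control 2 was the lowest by far, and mesalazine lay above both the DSS model (log2 change 0.61 ± 0.54 SE, adjusted p = 1.0) and control (log2 change 1.26 ± 0.55 SE, adjusted p = 0.237). Ugt2b35 had 26.7 and 17.0 CPM in the controls, 17.1 and 14.1 in the DSS model, 14.2 and 18.8 under Kuiyangling and 23.2 and 21.8 under mesalazine. Ugt2b36 and Ugt2b38 lay below 7 CPM in every library.

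EdgeR called no gene of the other lists of the pathway in any comparison after the filter on low counts, in 12 receptors and regulators, 12 electron donors and cofactor enzymes, 26 other phase I and II enzymes, 8 efflux transporters and 8 NRF2 targets tested. Of these 66 genes, 17 had an unadjusted p under 0.05 in mesalazine against control, against 20% of all genes. The counts were 10 in Kuiyangling against control (10.3% of all genes) and 6 in DSS model against control (14.8% of all genes). DESeq2 called 7 in mesalazine against control, against 7.19% of all genes: Akr1c12, Akr1c13, Akr1c19, Ces2e, Cyb5a, Mgst1 and Prdx1. It called 3 in DSS model against control, against 3.11% of all genes: Ces2e, Cyb5a and Hmox1. It also called Ces2e in Kuiyangling against control (2.56% of all genes) and Akr1c19 in mesalazine against DSS model (0.76% of all genes). The receptors Nr1i2 and Ahr had narrow ranges, whereas Ppara and Nr1i3 varied more. Nr1i2 (PXR) ran from 91.9 to 125 CPM and Ahr from 8.49 to 15.2 CPM. Ppara, the fatty acid receptor that drives Cyp4 genes in liver, had 53.2 and 25.6 CPM in the controls, 32.1 and 30.9 in the DSS model, 60.2 and 51.8 under Kuiyangling and 55.6 and 72.4 under mesalazine. All 4 treated libraries lay above the DSS model, with log2 changes of 1.02 ± 0.35 (SE, adjusted p = 0.669) for mesalazine and 0.83 ± 0.35 (SE, adjusted p = 0.996) for Kuiyangling. Nr1i3 (CAR) stayed at 1.49 to 6.41 CPM, highest in control 2, and its log2 change in DSS model against control was -1.10 ± 0.62 (SE, adjusted p = 0.406).

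Of the other phase I and II enzymes, 17 of 26 lay above control without overlap under mesalazine, with a median log2 change of 0.74, and 18 under Kuiyangling (median 0.41), against 23.6% and 25.9% of all genes. Akr1c19, an aldo-keto reductase, had 235 and 137 CPM in the controls, 168 and 276 in the DSS model, 388 and 319 under Kuiyangling and 819.7 and 484 under mesalazine, with a log2 change of 1.55 ± 0.40 (SE, adjusted p = 0.523) in mesalazine against DSS model and 1.81 ± 0.40 (SE, adjusted p = 0.0781) against control. Ces2e, a carboxylesterase, had 308 and 306 CPM in the controls, 538 and 663 in the DSS model, 747 and 564 under Kuiyangling and 712 and 832 under mesalazine, and all DSS-exposed libraries were above the controls (log2 change 0.97 ± 0.29 SE, adjusted p = 0.201 in the DSS model). Fmo2, a flavin monooxygenase, had 1.49 and 0.308 CPM in the controls, 0.503 and 0.398 in the DSS model, 3.71 and 1.56 under Kuiyangling and 2.48 and 1.81 under mesalazine, with a log2 change of 2.52 ± 0.78 (SE, adjusted p = 0.996) in Kuiyangling against DSS model.

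Cyb5a, the cytochrome b5 that passes electrons to P450s, had 77.4 and 52.9 CPM in the controls, 130.4 and 145 in the DSS model, 135 and 106 under Kuiyangling and 204 and 131 under mesalazine, above both controls in every DSS-exposed library (log2 change 1.08 ± 0.32 (SE, adjusted p = 0.187) in the DSS model and 1.36 ± 0.32 (SE, adjusted p = 0.0863) under mesalazine). Ugdh, which makes the glucuronic acid donor used by the Ugt enzymes, had 672 and 357 CPM in the controls, 410.2 and 487 in the DSS model, 776 and 752 under Kuiyangling and 476 and 976 under mesalazine, and Kuiyangling lay above the DSS model (log2 change 0.77 ± 0.41 SE, adjusted p = 0.996). Of the efflux pumps, Abcb1a (P-glycoprotein) had 662 and 633 CPM in the controls, 356 and 354 in the DSS model, 677 and 694 under Kuiyangling and 239.6 and 864 under mesalazine. Both DSS libraries were below both controls and both Kuiyangling libraries above all 4, while the 2 mesalazine libraries were the lowest and the highest of the 8. Its log2 change was -0.87 ± 0.48 (SE, adjusted p = 0.402) in DSS model against control and 0.95 ± 0.48 (SE, adjusted p = 0.996) in Kuiyangling against DSS model. Abcc2, a pump for conjugates, stayed below 4 CPM, with a log2 change of 2.21 ± 0.82 (SE, adjusted p = 0.186) in mesalazine against control. Of the NRF2 targets, Hmox1 (heme oxygenase) had 3.27 and 2.28 CPM in the controls, 10.2 and 8.49 in the DSS model, 8.36 and 6.44 under Kuiyangling and 8.99 and 4.44 under mesalazine, and 5 of 8 lay above control in the DSS model without overlap, against 27.1% of all genes. Its log2 change there was 1.74 ± 0.43 (SE, adjusted p = 0.135). Prdx1, a peroxiredoxin, had a log2 change of 1.23 ± 0.41 (SE, adjusted p = 0.154) in mesalazine against control.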

How the data were processed

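Total RNA from colonic mucosa was extracted with the mirVana kit, RNA of an integrity number of at least 7 was used, and mRNA libraries were made with a stranded TruSeq kit, per the labels' protocols. The authors deposited whole-number read counts per gene and FPKM values. The submitters' processing notes name Trimmomatic and HISAT2; their versions and roles, the read counter, its strand setting, the genome build and the annotation are not given in the sources used here. Gene lengths computed from the deposited FPKM, counts and library totals were equal in all libraries (relative tolerance 1e-06) for the 16489 genes where this could be computed. The label of 1 mesalazine column was spelled differently from its sample's title and was matched by group and number.

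Counts were tested with edgeR 4.0.16 (R 4.3.3): filterByExpr by group (13381 of 17353 genes), TMM scaling, and quasi-likelihood F tests, all 8 libraries being fitted together with group means (common biological coefficient of variation 0.287). Calls were made at adjusted p under 0.05 (Benjamini-Hochberg over all tested genes). Log2 changes are given with their SE. The series gives 2 animals per group, and p-values measure the spread between these libraries only. Alternatives used DESeq2 1.42.0 and limma 3.58.1 on log2(FPKM + 0.1) and log2(FPKM + 1). The tests were tried on simulated counts.

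Of the 84 members, 55 are named by rule: called members, per comparison the 3 highest and 3 lowest changes among members of at least 5 CPM whose libraries do not overlap, the member with the highest FPKM in each subfamily, and a panel of 35. Others are named where a value is given. Members, lists and tests were chosen with earlier results of these data known. Shared sequence is the share of a gene's 75-base windows that another gene's transcripts also hold, in GENCODE M21. Promoters came from RefSeq (GRCm38.p6).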

Additional observations from a re-analysis of the deposited data

How the results depend on the processing

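The counts of called members moved with the tool and with single libraries. In DSS model against control, edgeR called 0 members (0.247% of all genes). Without the filter on low counts it called 2 (2.38% of 84 members, against 2.81% of all genes), and DESeq2 called 5 (6.85% of 73, against 3.11%). Leaving out single libraries also moved the edgeR count. In mesalazine against DSS model the counts were 0, 3 without the filter (3.57%, against 0.599%) and 4 by DESeq2 (6.9% of 58, against 0.76%). In Kuiyangling against control they were 0, 3 without the filter (3.57%, against 2.6%) and 2 by DESeq2 (2.9% of 69, against 2.56%). These counts, too, shifted when libraries were left out. In mesalazine against control they were 3 (4.48%, against 0.673%), 12 without the filter (14.3%, against 6.28%), 9 by DESeq2 (13% of 69, against 7.19%), 0 by limma with either pseudocount, 1 with the length trend removed (1.49%, against 0.277%) and 6 in a fit of only the 4 libraries compared (8.96%, against 2.19%). There, leaving out libraries gave 0 (without control 2 or mesalazine 1) to 14 (without mesalazine 2; 20.9% of members and 20.9% of all genes), while all genes called ran from 1 to 2795 around 90. The test of any difference gave 0, 10 without the filter (11.9%, against 4.99%) and 8 by DESeq2 (10.8% of 74, against 5.21%). Its count also moved with libraries left out. Kuiyangling against DSS model and Kuiyangling against mesalazine gave 0 members in every setting run. The replicate numbers were not taken as pairs of mice. The deviations of same-numbered libraries correlated at -0.311 to 0.162, which with 2 libraries a group cannot decide whether they share a batch. With the replicate block, 1 member (Cyp2d26) was called in Kuiyangling against control in place of 0 (1.49%, against 0.486% of all genes). The number of members called in the other comparisons was as without it. All genes called rose from 32 to 65 in Kuiyangling against control and from 90 to 132 in mesalazine against control. They rose from 33 to 50 in DSS model against control and from 27 to 71 in the test of any difference. Elsewhere they stayed at 0. Of 2432 values of named members under 16 alternatives, 99 changed sign, 3 of them among values at least 1.5 standard errors from 0. A fit that left out a library assumed that the lone sample of its group varied like the others. Precision is limited by the 2 mice in each group, by control 2, which stood apart, and by the difference between the mesalazine libraries.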
